A study of Homo sapiens with 6 samples.

Results

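The collagen chains were examined in tumors grown from the human pancreatic cancer line BxPC-3, derived from an adenocarcinoma. A probe was taken as a member when the gene name printed on the array was COL, a type number, A and a chain number. This gave 43 genes with 65 probes and 92 spots, of 36337 gene names, 50599 probes and 58717 spots on the array. Cells had been injected subcutaneously into the backs of adult female BALB/c nude mice, and treatment began at a tumor volume of 150 mm3. The 3 control tumors came from mice given the vehicle, and the 3 DFX tumors came from mice given 200 mg/kg deferasirox (DFX), an oral iron chelator, by gavage every second day over 21 days. All mice carried the same nu/nu background and the same cell line, and the RNA of 1 tumor was put on each one-color array. The host lacks mature T cells but keeps its own fibroblasts, vessels and myeloid cells, so much of the stroma is mouse tissue measured with probes designed on human transcripts. How far mouse transcripts bound to these probes was not tested.

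Collagens are the main structural proteins of the extracellular matrix, and each molecule is a triple helix of chains in which glycine recurs at a fixed interval. Fibrillar collagens (types I, III, V and XI among them) build the fibers of connective tissue, type IV forms the sheet of basement membranes, and the remaining types join, anchor or decorate these structures or sit in the cell membrane. Newly made chains are hydroxylated on proline and lysine by enzymes that use iron, assembled into trimers in the endoplasmic reticulum, trimmed outside the cell and cross-linked by lysyl oxidases. Pancreatic carcinoma is known for a dense collagen-rich stroma, made mainly by fibroblasts, while carcinoma cells make basement membrane and transmembrane collagens.

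The 6 arrays lay on 1 slide, with the control tumors in row 1 and the DFX tumors in row 2, so that the row and the treatment cannot be told apart. Between 53.9% and 56.5% of all probes were well above background on 5 arrays, against 50.3% for DFX replicate 2. Of the 65 collagen probes, 38 to 42 were well above background on each array. Values are quantile-normalized log2 intensities, where 1 unit is a doubling. Levels of different probes served to rank probes as brighter or dimmer and to sum marker lists. They were not read as relative amounts of RNA of different genes. As the tumors were measured in bulk, fewer cells of a type and less RNA per cell cannot be told apart. The carcinoma markers KRT19 and KRT7 were well above background on every array, as were 9 of the 15 fibroblast and pericyte markers, while PDGFRB, POSTN, MMP2 and PDPN were so on none.

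The probes are what the measurements rest on, and all 65 were 60 bases long. Probes on the helical part of a chain carry its repeat, as the 2 with the most glycine codons in a 9-base register (5 each) show, with those codons in capitals.
COL9A1 A_24_P311856: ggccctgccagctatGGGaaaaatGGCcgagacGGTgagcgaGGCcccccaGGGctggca
COL16A1 A_33_P3210647: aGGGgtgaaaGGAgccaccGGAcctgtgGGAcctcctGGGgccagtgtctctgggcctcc
The array annotation placed the first at chr6:70926717-70926776 and the second at chr1:32148536-32148595 (hg19, both on the minus strand). Gene models of hg19 were not used here, so no exon or untranslated region was assigned. For the probes that differed between the groups, 30 bases each are shown, with the polyadenylation signal AATAAA in capitals where it was present. That signal was found in 8 of the 65 probes.
COL6A1 A_32_P32254: atagtgatgtgttcgacgttttatcaaagg
COL5A3 A_23_P55749: aggactgaggtcggactacagagggaagag
COL18A1 A_23_P211212: tgtgaagccaattcagacaggcaAATAAAa
COL9A3 A_23_P40108: tcaaaaggccctagctAATAAAcctgtaag
COL4A6 A_33_P3262969: tactgaatgatatggctggccggctctacc
In hg19 these lay at chr21:47424836-47424895 (COL6A1, plus strand), chr19:10070543-10070602 (COL5A3, minus strand), chr21:46933558-46933617 (COL18A1, plus strand), chr20:61472271-61472330 (COL9A3, plus strand) and chrX:107512310-107512369 (COL4A6, minus strand).

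The question was which collagen chains differed between DFX-treated and control tumors. A probe was tested with limma when its signal differed from background on all 6 arrays, which held for 44 probes of 32 collagen genes, 9 of the 11 fibrillar, 5 of the 6 basement membrane and 18 of the 26 other genes. At an unadjusted limma p under 0.05, 6 of the 44 probes differed, 4 of them higher and 2 lower in the DFX tumors. Over the whole array, 8.41% of the tested probes passed the same threshold, 3.47% higher and 4.95% lower, against 13.6% of the collagen probes. The higher probes belonged to COL6A1, COL5A3, COL18A1 and COL9A3, and the lower ones to COL4A6 and COL11A2. When each gene was represented by its brightest tested probe, 4 of 32 collagen genes (12.5%) differed, all of them higher, with 7.91% of all genes called in this way. With Benjamini-Hochberg adjustment across the 31801 probes, none passed at 0.05, and the lowest adjusted limma p was 0.514 among the collagen probes and 0.0674 on the whole array.

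**Figure D1:**
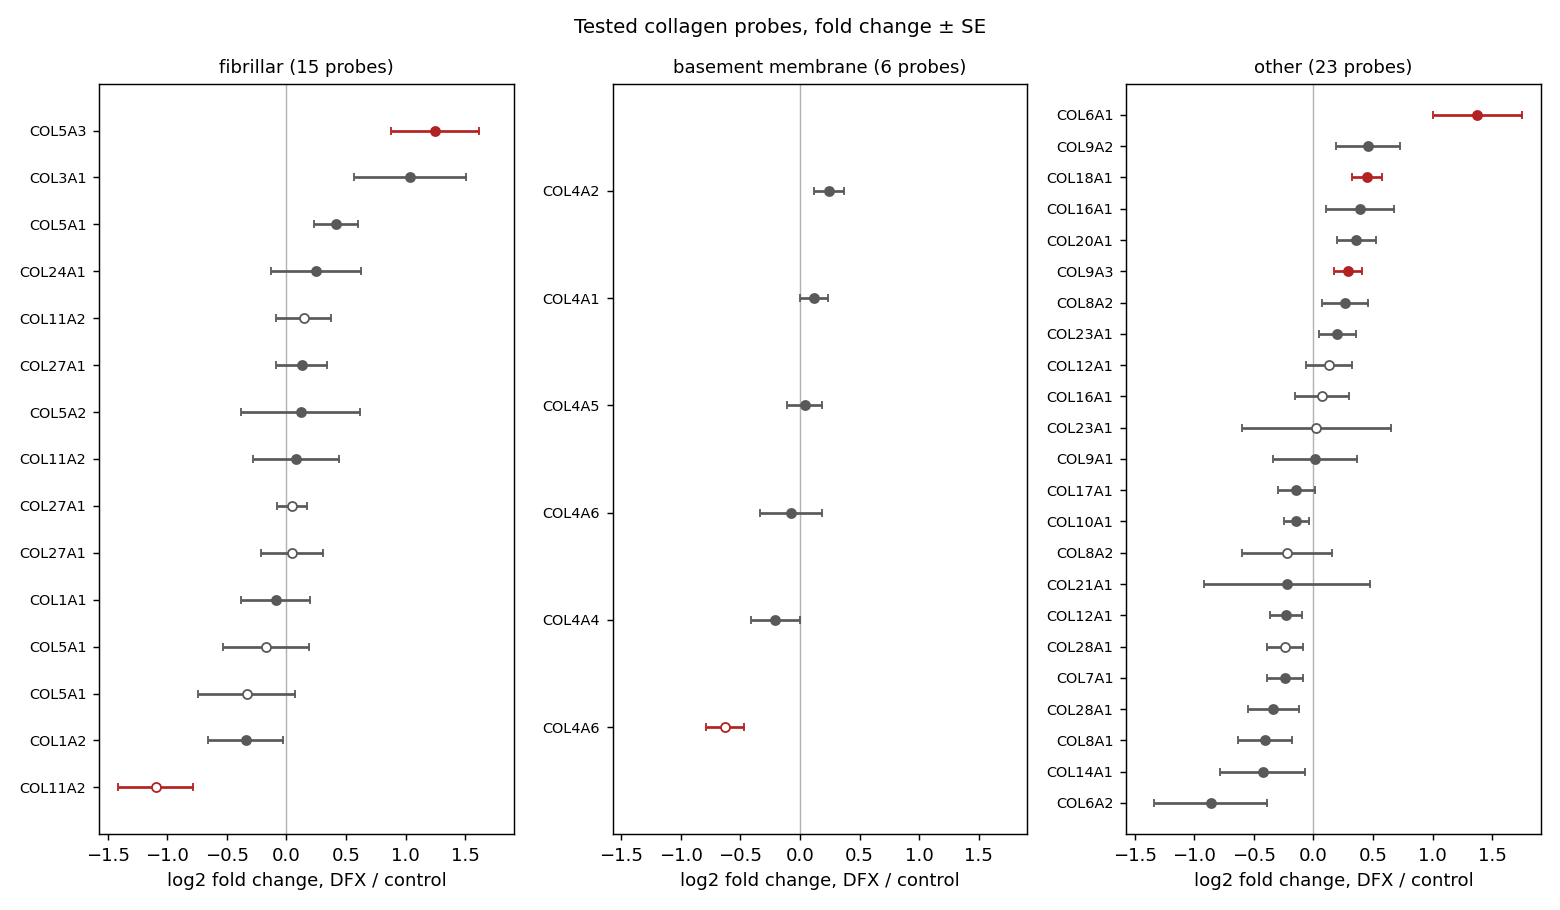
Log2 fold change of DFX over control tumors with its standard error for the 44 tested collagen probes, one row per probe, in 3 panels by class (15 fibrillar, 6 basement membrane and 23 other probes). Red marks the 6 probes past the unadjusted threshold and filled circles the brightest tested probe of a gene; COL6A1 and COL5A3 lie farthest to the right and COL11A2 farthest to the left, while the COL6A2 probe and the lower COL4A6 probe were well above background on no DFX array, so their plotted sizes are not bounds.

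The classes did not move as blocks. By brightest probe, 19 collagen genes had a higher mean and 13 a lower mean in the DFX tumors, and the median log2 fold change was 0.10, beside -0.01 over all tested genes. The median was 0.13 over the 9 fibrillar chains (7 higher, 2 lower), 0.04 over the 5 basement membrane chains (3 higher, 2 lower) and -0.06 over the 18 other chains (9 in each direction). Taken per tumor as the median deviation from the control mean, the fibrillar chains stood at 0.12, 0.17 and -0.27 with vehicle and 0.26, 0.06 and 0.55 with DFX. The basement membrane chains stood at -0.07, 0.01 and 0.07 against 0.04, 0.13 and 0.11, and the other chains at -0.02, 0.08 and -0.14 against -0.01, -0.11 and 0.10. The groups overlapped in all 3 classes. Scaling the arrays by their medians turned the basement membrane median to -0.08, while the median over every tested probe became -0.10, and it lowered the fibrillar median to 0.06. The median of the other chains turned to 0.11 when probes had to be well above background on all arrays, and to 0.22 without control replicate 1.

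COL6A1 encodes the α1 chain of type VI collagen, which forms beaded microfilaments between cells and matrix fibers. Its probe read 8.41, 9.43 and 7.93 with vehicle and 9.87, 9.95 and 10.08 with DFX. Every DFX tumor lay above every control tumor, and the control tumors were spread far more widely (SD 0.77) than the DFX tumors (SD 0.10, n = 3 each). The log2 fold change was 1.37 (SE 0.37), or 2.59-fold, with an unadjusted limma p of 0.0103 and an adjusted p of 0.514. Leaving out 1 tumor at a time or changing the processing gave log2 fold changes from 1.04 to 1.80, all past the unadjusted threshold in 19 of 19 alternatives.

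COL6A2 encodes the α2 chain that pairs with α1 in the type VI trimer, and its brightest tested probe had the opposite sign. It read 4.11, 5.98 and 4.53 with vehicle and 3.91, 4.12 and 4.02 with DFX. Control replicate 2 was the highest control tumor for both chains, control replicate 1 fell inside the DFX range for COL6A2, and the groups overlapped. The probe was well above background on 2 control arrays and on no DFX array, so only a bound on the group means is given, at least 1.46-fold lower with DFX. That bound leaves out the spread between tumors, and the difference did not pass the test (unadjusted limma p 0.117). With the unsubtracted mean signal the log2 fold change was -0.19. Of the α3 chain, COL6A3, neither probe was detected on all arrays, and the same held for COL6A5 and COL6A6.

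COL5A3 encodes the α3 chain of type V collagen, a fibrillar collagen that regulates the thickness of type I fibers. It read 3.99, 4.67 and 3.19 with vehicle and 5.29, 5.33 and 4.98 with DFX. The groups did not overlap, but the probe was dim, and only 2 of the 3 control arrays had it well above background. The log2 fold change was 1.25 (SE 0.37), with an unadjusted limma p of 0.0145 and an adjusted p of 0.526. It stayed past the unadjusted threshold in the 18 of 18 alternatives that tested this probe. The size ranged from 0.28 with the unsubtracted mean signal to 1.60 without control replicate 2. The alternative that required probes well above background on all arrays left this probe out.

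The other type V chains did not follow it clearly. COL5A1, the chain present in most type V molecules, read 8.56, 8.85 and 8.64 with vehicle and 9.31, 8.74 and 9.24 with DFX. DFX replicate 2 lay within the control range, and the log2 fold change of 0.42 (SE 0.18) did not pass (unadjusted limma p 0.0642). The remaining 2 tested COL5A1 probes had log2 fold changes of -0.17 and -0.33, so that the probes of this gene disagreed in sign. COL5A2 read 6.26, 6.32 and 7.46 with vehicle and 6.54, 6.17 and 7.69 with DFX, with 1 tumor in each group standing above the other 2 and a log2 fold change of 0.12 (SE 0.50).

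COL18A1 encodes a basement membrane proteoglycan-collagen whose C-terminal fragment is endostatin. Its probe read 9.18, 9.14 and 9.46 with vehicle and 9.77, 9.69 and 9.67 with DFX. All DFX tumors were above all control tumors by a narrow margin and with little spread within either group. The log2 fold change was 0.45 (SE 0.12), or 1.36-fold, with an unadjusted limma p of 0.0111 and an adjusted p of 0.514, and it fell short of the threshold with median scaling, where it was 0.33. COL15A1, the related multiplexin, was well above background on no array.

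COL9A3 is a chain of type IX collagen, which sits on the surface of cartilage-type fibrils. It read 12.31, 12.19 and 12.39 with vehicle and 12.58, 12.69 and 12.49 with DFX. The groups came closest at 12.39 and 12.49, and the log2 fold change was 0.29 (SE 0.11, unadjusted limma p 0.0429, adjusted p 0.582). This call was lost in 7 of 19 alternatives. Of its partners in the trimer, COL9A2 read 8.75, 8.48 and 7.74 with vehicle and 8.92, 8.70 and 8.72 with DFX, with a log2 fold change of 0.46 (SE 0.27) that did not pass, and control replicate 1 lay within the DFX range. COL9A1 read 6.73, 5.42 and 6.23 against 6.46, 6.09 and 5.87, with a log2 fold change of 0.02 (SE 0.35) and all DFX tumors inside the control range.

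**Figure D2:**
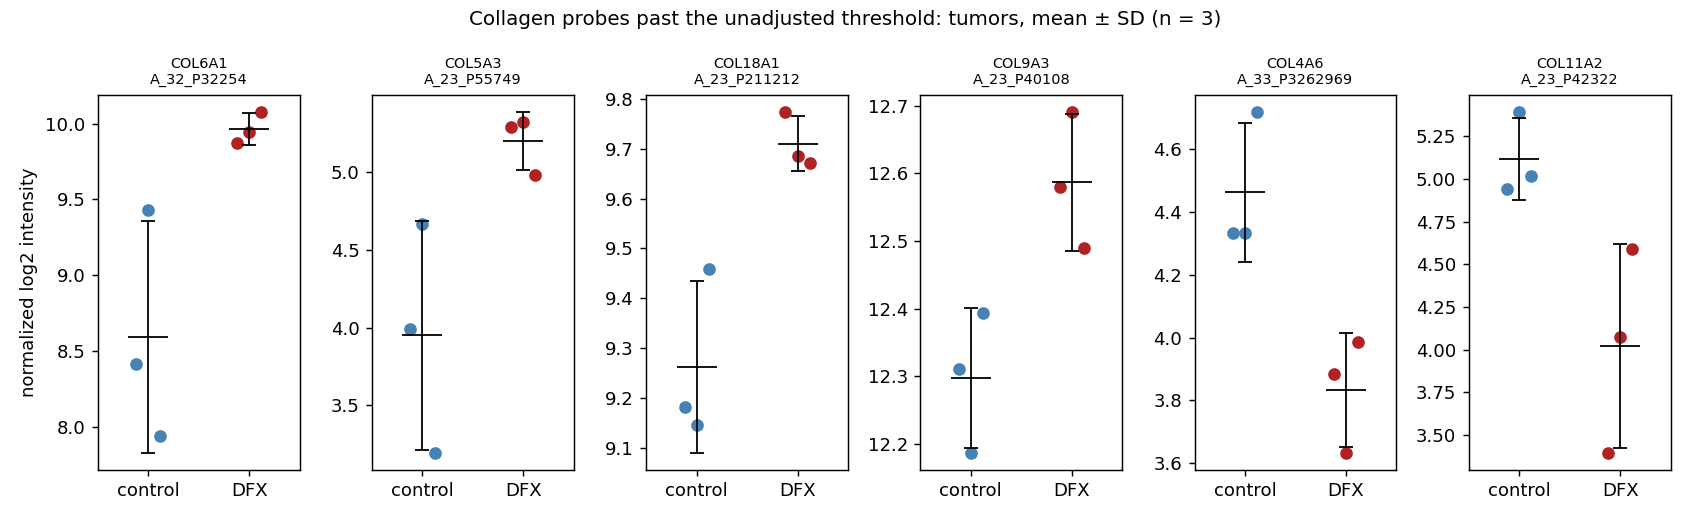
Normalized log2 intensity in each control (blue) and DFX (red) tumor for the 6 collagen probes past the unadjusted threshold, with the mean and SD of the 3 tumors of a group in black; each panel has its own axis, which does not start at 0. The groups are separate in all 6 panels, and the COL6A1 control tumors range from 7.93 to 9.43 while the DFX tumors stay between 9.87 and 10.08.

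Both probes that were lower in the DFX tumors were the dimmer probes of their genes. COL4A6 encodes a type IV chain of epithelial basement membranes. Its dimmer probe, which lies 5′ of the brightest one on the minus strand, read 4.33, 4.33 and 4.72 with vehicle and 3.88, 3.63 and 3.98 with DFX. The groups did not overlap, yet no DFX array had it well above background, so only a bound on the group means is given, at least 1.099-fold lower. The unadjusted limma p was 0.00810 and the adjusted p 0.514. The call was lost with normexp background correction and with the unsubtracted mean signal. The alternative that required probes well above background on all arrays left this probe out. The brightest COL4A6 probe, 113260 bases away, read 11.16, 11.89 and 12.08 with vehicle and 11.71, 11.44 and 11.77 with DFX. That difference did not pass (log2 fold change -0.07, SE 0.26, unadjusted limma p 0.785), and the groups overlapped.

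COL11A2 encodes a chain of the minor fibrillar type XI collagen. The dimmest of its 3 tested probes read 4.94, 5.39 and 5.02 with vehicle and 3.40, 4.07 and 4.59 with DFX. The groups were separate, with 3 control arrays but only 1 DFX array well above background. The log2 fold change was -1.096 (SE 0.32), with an unadjusted limma p of 0.0131 and an adjusted p of 0.518. The call held in the 18 of 18 alternatives that tested this probe, but its size ranged from -1.40 with array quality weights to -0.24 with the unsubtracted mean signal. The alternative that required probes well above background on all arrays left this probe out. A second probe overlaps it in sequence by 39 shared bases in 2 blocks, broken by a run of C of unequal length (3 in one probe, 2 in the other), shown in capitals within 30 bases of each.
COL11A2 A_33_P3216442: gtgcagggctgcatCCCgcagatggctgga
COL11A2 A_23_P42322: gtgcagggctgcatCCgcagatggctggaa
The overlapping probe read 6.48, 6.66 and 6.67 with vehicle and 6.60, 6.40 and 7.25 with DFX, a log2 fold change of 0.15 (SE 0.23). The brightest COL11A2 probe read 8.03, 7.90 and 7.60 against 8.51, 8.12 and 7.13, a log2 fold change of 0.08 (SE 0.36). Neither of these repeated the lower reading. The annotation set the overlapping probes 167 bases apart (chr6:33130677-33130736 and chr6:33130469-33130509, hg19) and gave the lower one only 41 bases, so its placement and its sequence did not match.

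Type I collagen, the trimer of COL1A1 and COL1A2 that makes up the bulk of connective tissue fibers, had no difference past the threshold. COL1A1 read 13.12, 13.50 and 12.38 with vehicle and 12.92, 12.75 and 13.04 with DFX (log2 fold change -0.09, SE 0.29, unadjusted limma p 0.765). COL1A2, measured with 10 spots per array, read 11.87, 12.15 and 10.96 with vehicle and 11.38, 11.13 and 11.45 with DFX (log2 fold change -0.34, SE 0.32, unadjusted limma p 0.320). For both chains control replicate 2 was the highest and control replicate 3 the lowest of all 6 tumors, so the DFX tumors lay inside the control range. COL3A1, the homotrimeric collagen that accompanies type I, read 4.93, 3.17 and 3.64 with vehicle and 5.08, 4.54 and 5.24 with DFX. Its log2 fold change of 1.04 (SE 0.47) did not pass (unadjusted limma p 0.0686), control replicate 1 lay within the DFX range, and the probe was well above background on 1 control and 2 DFX arrays. The fibrillar chains COL24A1 and COL27A1 had log2 fold changes of 0.25 and 0.13 and overlapped, and COL2A1 and COL11A1 were not tested.

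The genes of type IV collagen lie in head-to-head pairs that share the stretch between their start sites. In the RefSeq promoter table of GRCh38.p14, the nearest start sites were 127 bases apart for COL4A1 and COL4A2 on chromosome 13, 419 for COL4A3 and COL4A4 on chromosome 2 and 380 for COL4A5 and COL4A6 on chromosome X. The stretch between the first pair (chr13:110307158-110307283, plus strand) is shown because its genes were measured side by side; it held 1 CCAAT box on either strand, in capitals. CCAAT occurs on either strand in 34.6% of all 35116 promoter windows of the table (250 bases before to 50 after a start) and in 14 of the 43 windows of collagen genes.
COL4A1-COL4A2: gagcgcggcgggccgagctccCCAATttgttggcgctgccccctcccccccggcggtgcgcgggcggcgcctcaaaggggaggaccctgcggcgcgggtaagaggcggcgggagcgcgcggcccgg
COL4A1, which with COL4A2 forms the common basement membrane trimer, read 5.66, 5.46 and 5.77 with vehicle and 5.74, 5.76 and 5.75 with DFX (log2 fold change 0.12, SE 0.12). COL4A2 read 8.04, 7.84 and 7.79 with vehicle and 8.21, 8.20 and 8.0 with DFX (log2 fold change 0.24, SE 0.12, unadjusted limma p 0.0940). Both had higher means in the DFX tumors, but 1 control tumor overlapped the DFX group for each, and neither passed.

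The chains of the specialized type IV networks overlapped as well. COL4A5, a chain of epithelial basement membrane that is mutated in Alport syndrome, read 12.44, 12.51 and 12.58 with vehicle and 12.55, 12.32 and 12.78 with DFX (log2 fold change 0.04, SE 0.15). COL4A4 read 4.59, 4.86 and 4.67 with vehicle and 4.27, 4.93 and 4.30 with DFX (log2 fold change -0.21, SE 0.21), and its partner COL4A3 was well above background on no array. DFX replicate 2 was the highest tumor for COL4A4 and the lowest for COL4A5.

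Among the remaining collagens, those that join epithelium to stroma showed small differences within the spread. COL7A1, the anchoring fibril collagen, read 11.27, 11.71 and 11.67 with vehicle and 11.31, 11.26 and 11.37 with DFX (log2 fold change -0.24, SE 0.15). COL17A1, the transmembrane collagen of hemidesmosomes, read 13.05, 13.17 and 13.27 against 13.05, 12.76 and 13.26 (log2 fold change -0.14, SE 0.16). For COL7A1 2 control tumors stood above all DFX tumors, and for COL17A1 the groups overlapped.

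The network collagen chains COL8A1 and COL8A2 differed in sign. COL8A1 read 10.65, 11.24 and 10.51 with vehicle and 10.59, 10.19 and 10.40 with DFX (log2 fold change -0.40, SE 0.23). COL8A2 read 5.44, 5.67 and 5.31 with vehicle and 6.09, 5.58 and 5.54 with DFX (log2 fold change 0.27, SE 0.19). Neither passed, and a second COL8A2 probe had a log2 fold change of -0.22. COL10A1, the cartilage network collagen, read 7.10, 7.13 and 7.28 against 7.02, 7.04 and 7.03, without overlap but with a log2 fold change of only -0.14 (SE 0.10).

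The FACIT collagens, which attach to fibrils by interrupted helices, spanned log2 fold changes from -0.42 (COL14A1) to 0.46 (COL9A2). COL12A1, which binds type I fibers, read 12.39, 12.75 and 12.67 with vehicle and 12.36, 12.30 and 12.46 with DFX. Control replicate 1 lay within the DFX range, the log2 fold change was -0.23 (SE 0.13), and its second probe went to 0.13. COL20A1 read 6.14, 5.92 and 5.70 against 6.51, 6.14 and 6.19, and the closest tumors of the groups all but touched. Its log2 fold change of 0.36 (SE 0.17) did not pass (unadjusted limma p 0.0739). COL16A1, COL21A1 and the transmembrane COL23A1 overlapped, with log2 fold changes of 0.39, -0.22 and 0.20, and COL28A1 had -0.34 and -0.24 on its 2 probes.

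**Figure D3:**
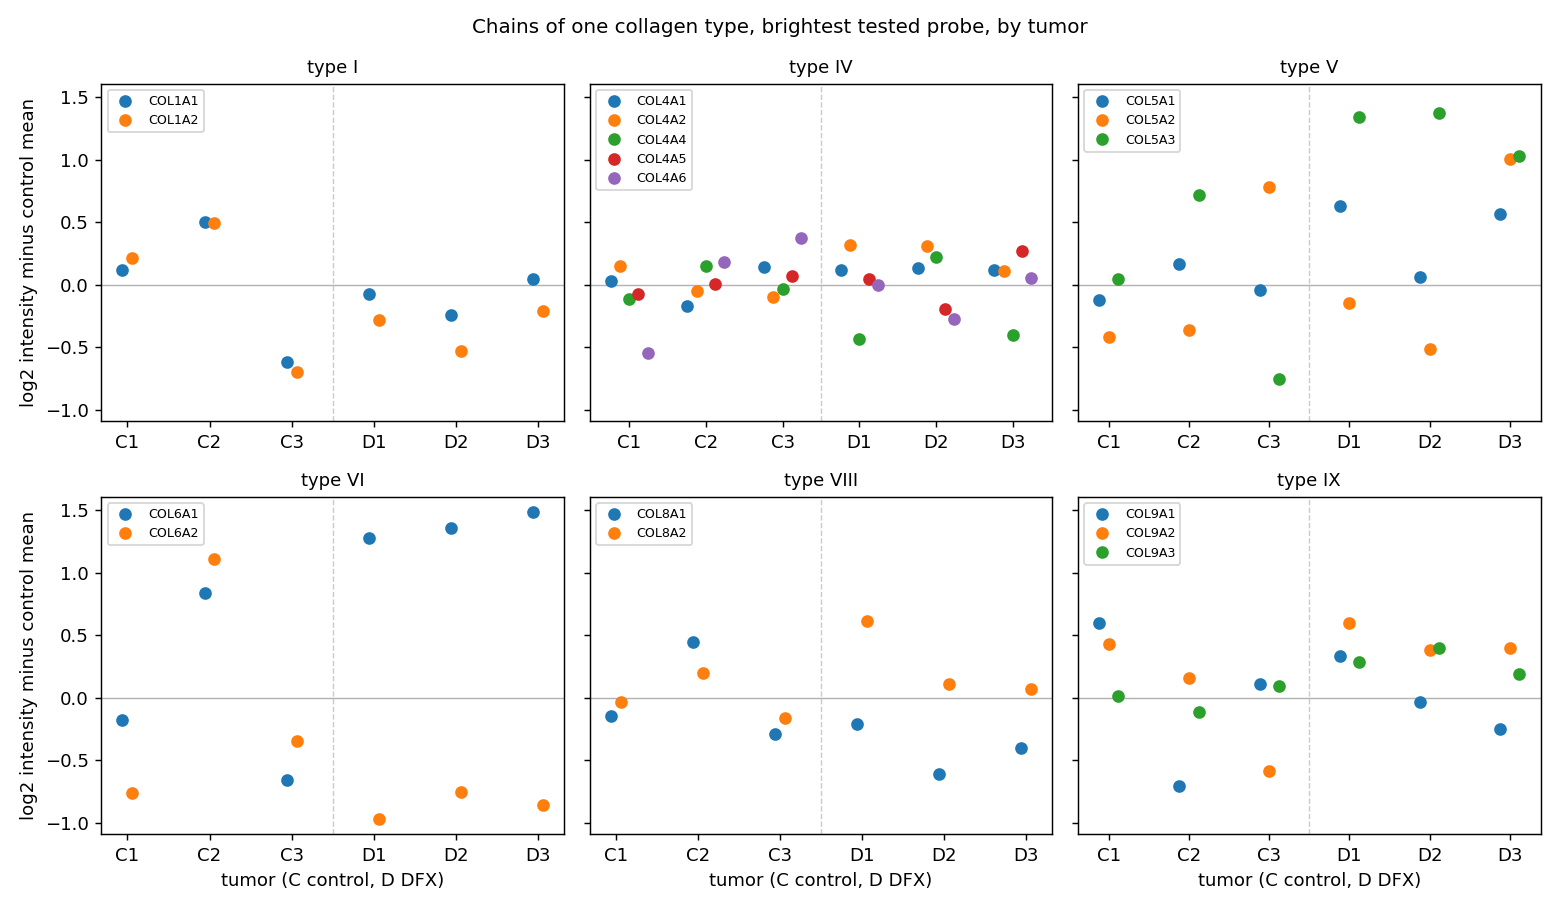
Log2 intensity of each tumor minus the control mean of the same probe (vertical axis) for the chains of types I, IV, V, VI, VIII and IX, by brightest tested probe, in control tumors C1 to C3 and DFX tumors D1 to D3. COL1A1 and COL1A2 keep the same order among the control tumors, whereas all 3 DFX tumors lie above the control mean for COL6A1 (log2 fold change 1.37) and below it for COL6A2, which no DFX array had well above background.

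Without a test, groups whose tumors did not overlap were found for 8 of the 44 collagen probes (18.2%), 5 higher and 3 lower, against 15.5% of all tested probes. The 8 were the 6 named above, COL10A1 and COL20A1. Of the 9 collagen genes with more than 1 tested probe, 4 had probes of opposite sign.

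For 11 collagen genes no probe was tested, namely COL2A1, COL4A3, COL6A3, COL6A5, COL6A6, COL11A1, COL13A1, COL15A1, COL19A1, COL22A1 and COL25A1. Of the 21 untested probes, 16 were well above background on no array and 5 on DFX arrays alone. The share of all untested probes on the array that were so on DFX arrays alone was not counted. Conversely, a second COL23A1 probe was tested although no array had it well above background. In all, 34 collagen probes of 27 genes were well above background on every array, and over their brightest probes the median log2 fold change was 0.12.

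Promoter windows of 31 of the 43 genes were in the RefSeq table. The core of the hypoxia response element, ACGTG or GCGTG on either strand, was present in 18 of the 43 collagen windows (16 genes) and in 48.4% of all windows. Among the genes with a called probe, COL18A1 had it in 1 of 2 windows and COL11A2 in 2 of 4, and the windows of COL5A3 and COL4A6 did not have these letters. COL6A1 and COL9A3, which also had a called probe, had no window in the RefSeq table.

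Among the enzymes that modify collagen chains, no gene passed by its brightest probe, beside 7.91% of all genes. Of 24 tested array names of hydroxylases, glycosyltransferases, chaperones and export factors, 16 had higher and 8 lower means in the DFX tumors (median log2 fold change 0.09). Over all tested genes, 11338 had higher and 12467 lower means. The α subunits of prolyl 4-hydroxylase, which stabilizes the helix, had log2 fold changes of 0.15 (P4HA1, SE 0.16) and -0.02 (P4HA2, SE 0.23), and the β subunit P4HB had 0.07 (SE 0.09). The lysyl hydroxylases had 0.22 (PLOD1, SE 0.18), 0.49 (PLOD2, SE 0.22, unadjusted limma p 0.0661) and -0.08 (PLOD3, SE 0.15). The prolyl 3-hydroxylase LEPRE1 had 0.03 (SE 0.10) and the collagen chaperone SERPINH1 had 0.18 (SE 0.21). A second, dimmer probe of the galactosyltransferase GLT25D1 was lower by limma (log2 fold change -1.04, unadjusted p 0.0215), while its brightest probe had -0.07.

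Of the genes that process and cross-link collagen outside the cell, 2 of 10 tested passed, both higher, beside 7.91% of all genes. ADAMTS14, a procollagen N-proteinase, read 7.27, 6.94 and 6.61 with vehicle and 7.43, 8.13 and 8.08 with DFX, without overlap (log2 fold change 0.94, SE 0.26, unadjusted limma p 0.0103, adjusted p 0.514). LOX, the lysyl oxidase that starts cross-linking, read 6.26, 6.78 and 6.64 with vehicle and 6.76, 7.30 and 7.24 with DFX. Control replicate 2 overlapped the DFX group for LOX, whose log2 fold change was 0.54 (SE 0.21, unadjusted limma p 0.0415) and which passed in 10 of 19 alternatives.

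Of the collagen receptors, 1 of 9 tested passed, about the share of all genes that did (7.91%). MRC2, the endocytic receptor that takes up collagen fragments, read 10.55, 10.41 and 10.52 with vehicle and 10.99, 10.95 and 10.77 with DFX, a log2 fold change of 0.41 (SE 0.11, unadjusted limma p 0.0102, adjusted p 0.514) without overlap, which fell short of the threshold with median scaling (0.29). DDR1, a collagen-binding receptor kinase, had 0.04 by its brightest probe. A dimmer DDR1 probe was lower (unadjusted limma p 0.0262), and as no DFX array had it well above background, no fold is given. Over the 43 tested pathway genes, 3 passed (ADAMTS14, LOX and MRC2, all higher), no larger a share than the 7.91% of all genes, with a median log2 fold change of 0.08.

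**Figure D4:**
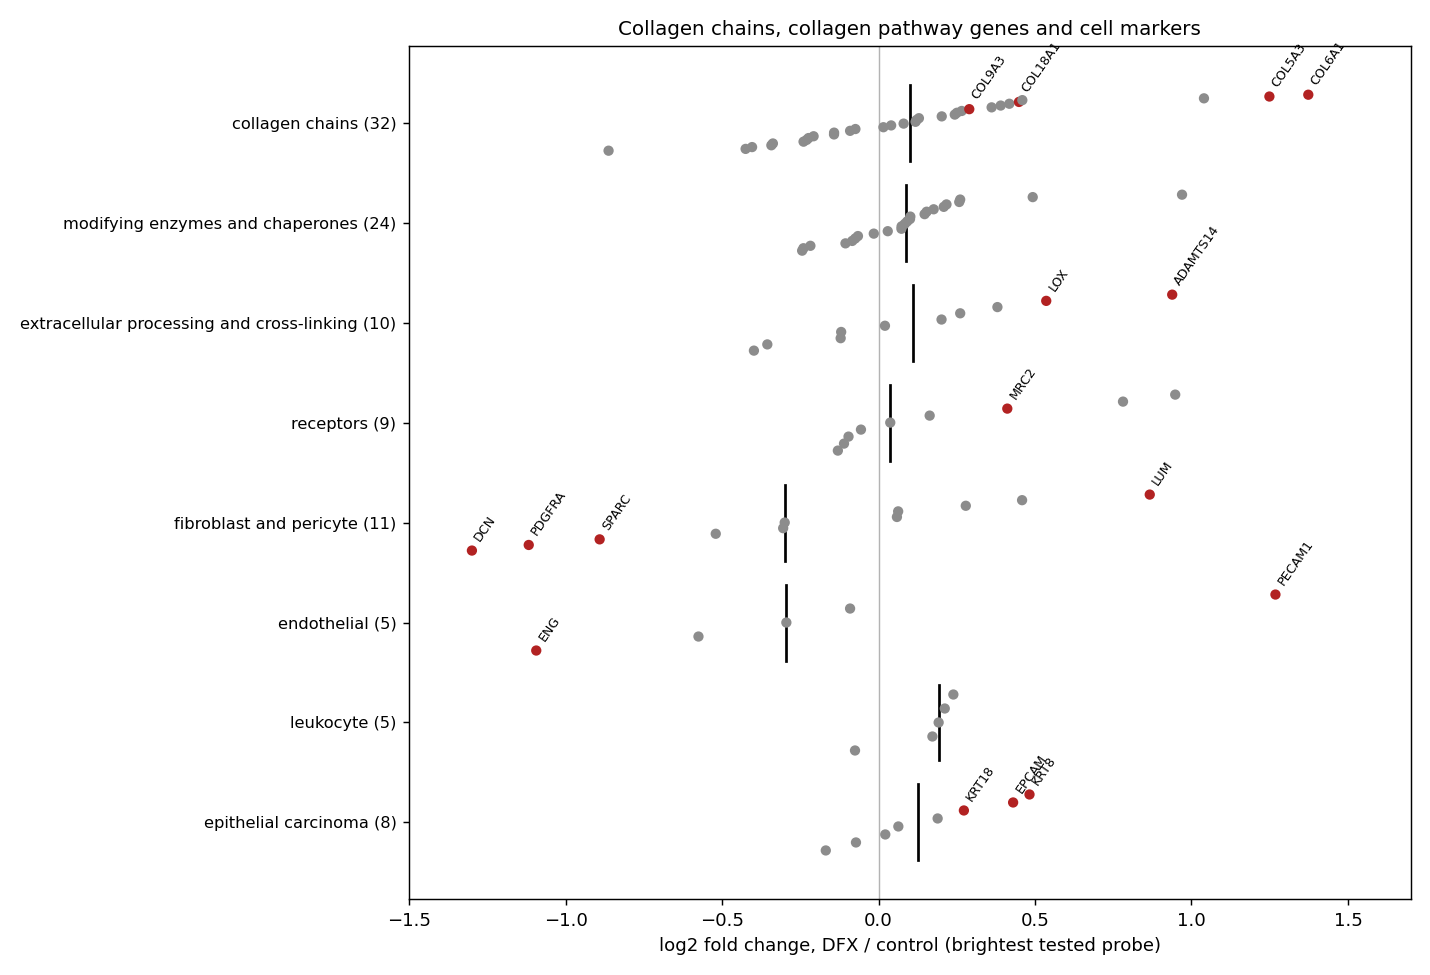
Log2 fold change (DFX over control, horizontal axis) by brightest tested probe for the collagen chains, the 3 pathway lists and 4 lists of cell type markers, with the number of tested genes in parentheses. Each dot is a gene, red dots are named and passed the unadjusted threshold, and black bars are medians; the bar of the fibroblast and pericyte list (-0.30) lies left of 0 and that of the collagen chains (0.10) right of it.

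Markers of other cell types moved beside the collagens in mixed directions, and the counts below stand against 7.91% of all genes called by brightest probe. Of 11 tested fibroblast and pericyte markers, 3 were lower, namely DCN, a small proteoglycan on type I fibers (log2 fold change -1.30, SE 0.32), PDGFRA, a mesenchymal receptor (-1.12, SE 0.30), and SPARC, a collagen-binding matrix protein that was well above background on 1 control array only. LUM, a fibril-associated proteoglycan, was higher (0.87, SE 0.34). The list had a median of -0.30, and the log2 of the summed intensity of its tested genes, in which the brightest probes (such as FBLN1) weigh most, was 14.28 to 14.58 in the control tumors and 14.01 to 14.16 in the DFX tumors. Of 5 tested endothelial markers, PECAM1 was higher (1.27, SE 0.19) and ENG lower (-1.09, SE 0.29). ENG was well above background on only 1 DFX array, so the size of its difference is uncertain. The summed levels of the endothelial list, taken in the same way, were 9.13 to 9.94 in the control and 9.19 to 9.28 in the DFX tumors. None of 5 tested leukocyte markers passed, and of 8 epithelial markers EPCAM, KRT8 and KRT18 were higher (0.43, 0.48 and 0.27). Dimmer KRT8 probes had log2 fold changes of -0.12 and 0.24 and a dimmer KRT18 probe had 0.15, none past the threshold. The summed level was 11.02 to 11.27 against 11.12 to 11.31 for the leukocyte list and 19.49 to 19.58 against 19.56 to 19.57 for the epithelial list. The part of these cell types in the collagen values was not tested.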

How the data were processed

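RNA of 3 control and 3 DFX tumors was hybridized to one-color human arrays. The authors deposited 1 scanner file per array with spot intensities on a linear scale, a p-value against background and flags (Agilent Feature Extraction 10.7.1.1 per the file headers, 9.5.1.1 per the submitters' processing notes). The deposited table of processed intensities differed by a median of 0.00438% from quantile normalization of the processed signal. The methods give the Kruskal-Wallis H test for the in vivo work in general, used here as an alternative, and do not say which test stood behind the array threshold.

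From the processed signal, log2 values of 58717 non-control spots were quantile-normalized, 1398 flagged spot values were left out and spots of a probe were averaged. The 31801 probes that differed from background (p-value under 0.05) on each of the 6 arrays were fitted in limma 3.58.1 (R 4.3.3; lmFit, then eBayes), two-sided, with Benjamini-Hochberg adjustment over all of them. With 3 tumors per group the number of arrays limits the precision. Where a group had no array well above background, the fold is given as a lower bound, with the brighter mean set against the lowest signal well above background on each array. This bound concerns the group means and leaves out the spread between tumors. Tumors were labelled as separate, 1 per array.

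The members, the pathway and marker lists and the classes were chosen with earlier results of these data known. Values in every tumor are given for collagen genes with any probe at an unadjusted p under 0.05, the brightest chain of each kind and the chains of a trimer. COL20A1 and COL10A1 were added after their values were seen. MIA2 and CTAGE5, now 1 gene, are separate array names. All 43 collagen symbols matched the RefSeq gene table of GRCh38.p14. On simulated data for this comparison (31797 probes, 100 changed by 1 and 100 by 2 on the log2 scale), limma called 91% and 100% of them unadjusted and 4.95% of unchanged probes. After Benjamini-Hochberg adjustment 19% and 73% of the changed probes were called. The simulated noise was drawn from the variance distribution that limma itself fits, with no effect of the slide row. The share of unchanged probes called therefore followed from that setting, and the other shares hold only under it. The noise also did not depend on intensity, so these shares may not hold for dim probes. Alternatives covered normalization, background, filters, flags, test, weights, the replicate block and each tumor left out.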

Additional observations from a re-analysis of the deposited data

Results flagged for a closer look

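Of the collagen probes outside the comparison, 5 were well above background in DFX tumors and in no control tumor. How many untested probes of the whole array had this pattern was not counted, so the 5 are not read as particular to collagens. COL19A1, a FACIT chain, reached a log2 intensity of 8.07 on one probe in DFX replicate 2, with 3.91 in DFX replicate 3 and 1.95 to 1.98 in the control tumors, and 4.71 on another probe in DFX replicate 3. COL11A1, the fibrillar chain that joins COL11A2, reached 6.32 in DFX replicate 2 alone, and COL6A3 reached 5.23 there on 1 of its 2 probes. A COL20A1 probe reached 5.10 in DFX replicate 2 and 4.72 in DFX replicate 3. Over all untested probes, 1762 were well above background on exactly 1 array, and the share of them per array was 8.06% to 18.8% for the control tumors and 16.9% to 20.3% for the DFX tumors, highest on that of DFX replicate 2. Groups of 3 tumors were too small for a test of single outlying values.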

How the results depend on the processing

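The number of collagen probes past the unadjusted threshold was 6, and it was 4 to 9 over the alternatives that kept all tumors. The 4 came with probes well above background on all arrays, beside 9.21% of all probes tested that way. The 9 came with array quality weights, beside 11.4% of all tested probes, and the Kruskal-Wallis H test gave 8, beside 15.5%. Leaving out 1 tumor gave 5 to 11. The 11 came without control replicate 1, beside 8.52% of all tested probes. Median scaling put the basement membrane median at -0.084 and the number of pathway genes called at 1, against 8 with normexp background correction and 7 with the unsubtracted mean signal, where the main count was 3. Leaving out 1 tumor gave 2 (without DFX replicate 3) to 8 (without control replicate 3) pathway genes, with 7 without control replicate 2. Of all tested probes, 8.4% were called with median scaling, 8.69% with normexp background correction and 9.04% with the unsubtracted mean signal. The share was 8.4% without DFX replicate 3, 7.92% without control replicate 3 and 7.14% without control replicate 2. The basement membrane median ranged from -0.073 (without DFX replicate 3) to 0.12 (without DFX replicate 2), the fibrillar median from 0.15 to 0.31 (0.13 with all tumors, 0.06 with median scaling) and the median of the other chains from -0.14 (without control replicate 2) to 0.22 (without control replicate 1). Requiring probes well above background on all arrays put the last at 0.11. Among single genes, COL9A3 lost its call without control replicate 1, control replicate 2, DFX replicate 1 or DFX replicate 2, and LOX when any 1 of control replicates 1 and 3 or DFX replicates 2 and 3 was dropped. The causes were not tested. Of all calls on the array, 58.8% were lower in the main setting, 42.6% with scaling by the 75th percentile and 71.8% with median scaling. Deviations from the group means correlated at 0.0158 to 0.0273 for same-numbered tumors and at -0.0688 to 0.048 for differently numbered ones. With 3 tumors per group, these values cannot tell whether the numbers pair the tumors. With the replicate block, 7 collagen probes (5 of them shared) and 4 pathway genes were called, beside 7.61% of all tested probes. Without a filter on dim probes the collagen count was 6 of 65, beside 7.46% of all probes. Of the 44 tested collagen probes, 10 were not well above background on every array.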
